A study of Mus musculus with 15 samples.

Results

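The hairpins mmu-mir-6236, mmu-mir-5099, mmu-mir-5110, mmu-mir-1953 and mmu-mir-3081, given below without the prefix mmu-, were followed in small RNA libraries from miR-302 knockout (KO) and wild-type (WT) mouse embryos. They are 5 of the 1226 microRNA hairpins in the deposited count table, and together they held 4.23% of all reads. They were picked by name because they carry late numbers in the microRNA registry and because their counts had shifted in KO or at the last stage. Their differences between genotypes and between E9.5 and E8.5 are therefore given as descriptions, with no test of their own. A count at such a hairpin may come from fragments of another RNA, which was not tested, so values are given as a share of each library and in reads.

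A microRNA is cut from a hairpin-shaped transcript, and its mature strand guides a silencing complex to target RNAs. The seed, bases 2 to 8 of the mature strand, sets most of that pairing. Hairpins with late numbers were mostly added to the registry from sequencing reads, and many have few reads and no known target. Small RNA libraries also hold fragments of other RNAs, such as ribosomal and transfer RNA, in the same range of lengths, and such a fragment is counted wherever it aligns.

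All 15 libraries came from C57BL/6 mice. The groups were 2 KO and 2 WT libraries of whole embryos at E7.5, 4 KO and 3 WT libraries of cells sorted as Wnt1-Cre+ at E8.5, and 2 KO and 2 WT libraries of cells sorted as Sox10+ at E9.5. The Wnt1-Cre driver is active in the dorsal neural tube, so it labels cells still there as well as crest cells that have left. Sox10 is a transcription factor of crest cells on the move. Since each stage had its own cell source, stage and source cannot be told apart. The labels give the genotype only as KO or WT and do not say whether embryos were pooled or came from separate litters, so errors cover the spread between these samples, which may be technical in part.

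Depth ran from 1706 to 323389 reads, and 1 read was worth 0.147 to 19.3 normalized counts. The KO libraries held 1706 to 52362 reads and the WT libraries 24465 to 323389. The 4 targeted hairpins mir-302a to mir-302d summed to 13.2 to 31.0 normalized counts in KO against 4001 to 14226 in WT at E7.5, and to 0 to 19.3 in KO against 3875 to 6522 in WT at E8.5. At E9.5 they summed to 75.4 and 148 in KO against 338 and 466.3 in WT. The E9.5 KO libraries thus kept 27.8% of the WT mean, and each E9.5 direction between genotypes carries that limit. The neighbouring mir-367 was not lost at E7.5, with 57.2 to 93.2 in KO and 41.1 to 98.8 in WT. Cells of neural crest have no defining microRNA in this table against which the sorts could be checked.

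The mature sequences below, from RefSeq on GRCm38.p6, show how little the hairpins share, with the seed in capitals. For mir-5099 the hairpin is printed, and its capitals mark the run that the authors' deposited table lists as the miR-5099 seed. RefSeq's table held a mature entry for 4 of the 5 hairpins and a hairpin entry for 4 of 5, mir-5099 lacking the first and mir-6236 the second.
miR-6236: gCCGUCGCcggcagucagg
miR-5110: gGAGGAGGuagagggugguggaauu
miR-1953: uGGGAAAGuucucaggcuucug
miR-3081-5p: gACUGGAGcuuggagcggugagc
miR-3081-3p: uUGCGCUCcgaucucugagcugg
mir-5099 hairpin: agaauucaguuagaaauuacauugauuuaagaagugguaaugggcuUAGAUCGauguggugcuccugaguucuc

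No 2 of these mature sequences had the same seed. The seed of miR-5110 was shared with 1 other of the 1674 mature sequences, miR-7081-5p, and the other 4 seeds with none. Mature miR-5110 also held the letters GAGGUAG, the seed of let-7, at bases 5 to 11 rather than at its own seed. That run occurred in 15 mature sequences, 5 of them not let-7 or miR-98. Mature miR-6236 was 19 bases long, against a median of 22, and 79.0% of its bases were G or C, against a median of 52.2%. Only 1.2% of mature sequences had a G and C content as high.

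The 5 hairpins lie on 5 chromosomes of GRCm38. mir-6236 spans chr9:110281287-110281409 on the plus strand, between genes, 18711 bases from Cspg5, which encodes a brain proteoglycan. mir-5099 spans chr12:36816205-36816278 on the plus strand, 126702 bases from Ispd, which encodes an enzyme of dystroglycan glycosylation. mir-5110 spans chr11:85760616-85760702 on the minus strand, in an intron of Bcas3, which is transcribed from the opposite strand. mir-1953 spans chr2:151967529-151967617 on the minus strand, 1781 bases from Fam110a. mir-3081 spans chr16:44558046-44558129 on the minus strand, in an intron of Boc on the same strand, 768 bases from the start of that gene. Boc encodes a co-receptor for Hedgehog ligands.

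The folding of the hairpins differed as much as their sequences. The minimum free energy computed with RNAfold was -0.36 kcal/mol per base for mir-5099 and -0.32 for mir-5110, weaker than the median of -0.41 over 997 mouse hairpins. It was -0.46 for mir-1953 and -0.63 for mir-3081, and only 2.81% of hairpins folded more stably per base than mir-3081. In 3910 annotated structural RNA transcripts, which include small nuclear, nucleolar, 5S and mitochondrial RNAs, the longest run shared in the sense direction was 10 to 13 bases for each mature sequence. The median over all mature sequences was 11, and 2.75% had a run of 15 or more. The 28S ribosomal RNA and the cytosolic transfer RNAs were not searched here. No entry for a mature arm held a count in any library (2108 entries summing to 0), so the reads of a hairpin could not be assigned to an arm, and their lengths were not analysed here.

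mir-6236 was abundant in every library and by far highest in the E9.5 KO libraries. At E7.5 it took 1.76% and 2.06% of reads in KO (424 and 1079 reads) and 3.32% and 1.31% in WT (4441 and 2487 reads), with both KO values between the WT values. At E8.5 it took 3.26%, 0.660%, 1.93% and 2.29% in KO (836, 304, 33 and 223 reads) and 1.41%, 0.838% and 1.29% in WT (344, 1046 and 2313 reads). The groups overlapped there, with 1 KO library below and 3 above the WT range.

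At E9.5 mir-6236 took 11.4% and 12.7% of reads in KO (4519 and 3076 reads), against 1.33% and 4.33% in WT (4308 and 5922 reads). Both KO libraries lay above both WT libraries, and mir-6236 was the hairpin with the second highest count in each KO library, against rank 9 and rank 3 in the WT libraries. The WT libraries themselves differed by far more than counting error, with exact 95% intervals of 1.29% to 1.37% and 4.22% to 4.44%. Such intervals cover counting error only, here and below. In these bulk samples fewer cells of a type and less RNA per cell cannot be told apart.

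In order of mean share, E9.5 KO stood first at 12.1% ± 0.938 (SD, n = 2), apart from every other group. E9.5 WT (2.83% ± 2.12, n = 2), E7.5 WT (2.31% ± 1.43, n = 2), E8.5 KO (2.04% ± 1.08, n = 4) and E7.5 KO (1.91% ± 0.212, n = 2) followed, each overlapping the next. E8.5 WT was last at 1.18% ± 0.299 (n = 3), and its libraries lay below both E7.5 KO libraries. In normalized counts E8.5 WT was also last, at 527 ± 151 (n = 3), but E9.5 WT stood behind E7.5 WT, with 1240 ± 859 and 1609 ± 989 (n = 2 each).

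**Figure D1:**
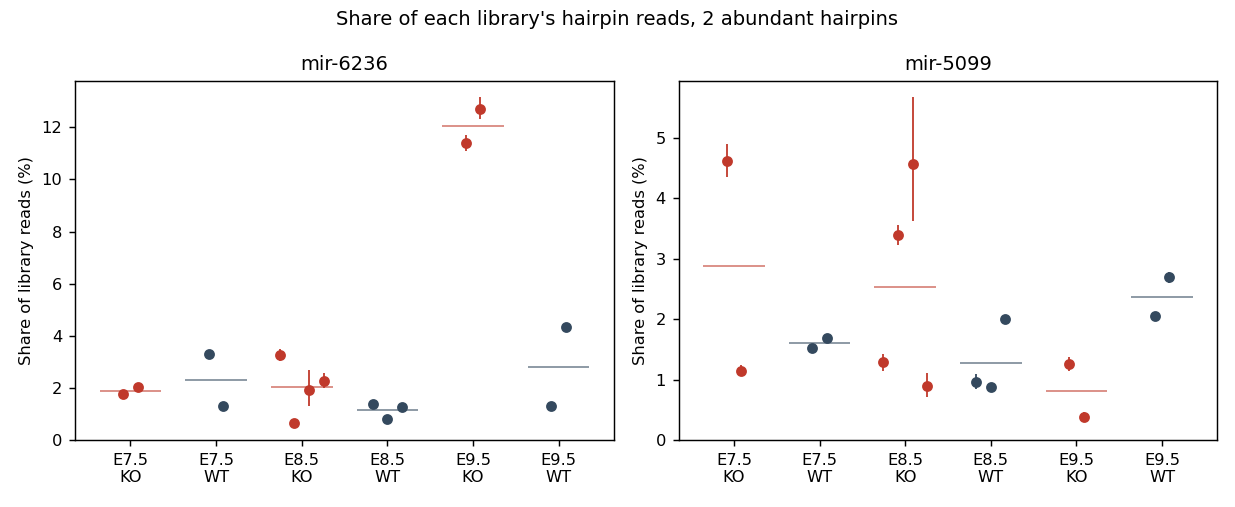
Share of each library's hairpin reads, in percent, for mir-6236 (left) and mir-5099 (right) in the 6 groups. Points are libraries with exact 95% binomial intervals, horizontal lines are group means, KO is red and WT dark blue. For mir-6236 the 2 E9.5 KO libraries sit at 11.4% and 12.7%, above all others, and for mir-5099 the 2 E9.5 KO libraries sit below both E9.5 WT libraries.

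Pooled over libraries, the E9.5 KO share of mir-6236 was 5.35 times that of WT (exact 95% interval 5.19 to 5.51). The ratio of mean normalized counts was 6.27, with 7776 ± 1621 in KO and 1240 ± 859 in WT (SD, n = 2 each). The fitted log2 fold change was 2.83 ± 0.74 (SE). It was 2.32 when libraries were scaled by their sums and 2.05 with TMM scaling. Leaving out 1 library moved it as far, to 2.06 without E9.5 WT replicate 1 and to 3.60 without E9.5 WT replicate 2. Between stages in KO, E9.5 stood 3.62 ± 0.64 above E8.5 on the log2 scale, with a pooled share 7.09 times higher (6.69 to 7.51). That log2 value was 2.77 with library sums and 3.08 with TMM scaling. In WT the difference between E9.5 and E8.5 was 1.08 ± 0.67, and leaving out E9.5 WT replicate 2 made it 0.31. The 2 E9.5 KO libraries enter both the genotype and the KO stage comparison, which are therefore not independent.

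mir-5099 had shares of the same size as mir-6236 at the first 2 stages, and its KO and WT values at E9.5 lay the other way round. At E7.5 it took 4.62% and 1.15% of reads in KO (1113 and 604 reads) and 1.53% and 1.69% in WT (2049 and 3226 reads). There the KO values lay on either side of the WT values. At E8.5 it took 1.29%, 3.40%, 4.57% and 0.902% in KO (330, 1565, 78 and 88 reads) and 0.969%, 0.881% and 2.0% in WT (237, 1099 and 3603 reads). KO replicates 2 and 3, whose labels carry the same code number (128), were the high ones, and replicates 1 and 4 lay within the WT range.

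At E9.5 mir-5099 took 1.26% and 0.380% in KO (501 and 92 reads), against 2.06% and 2.69% in WT (6671 and 3683 reads). Both KO libraries lay below both WT libraries, and the exact 95% intervals of those 2 KO libraries, 1.16% to 1.38% and 0.307% to 0.466%, did not meet.

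The order of mean share ran from E7.5 KO (2.89% ± 2.45, n = 2) through E8.5 KO (2.54% ± 1.74, n = 4), E9.5 WT (2.38% ± 0.447, n = 2), E7.5 WT (1.61% ± 0.114, n = 2) and E8.5 WT (1.28% ± 0.625, n = 3) to E9.5 KO (0.822% ± 0.624, n = 2). Only E9.5 WT and E7.5 WT were neighbours in this order whose libraries did not overlap. The fitted log2 fold change between genotypes was 0.24 ± 0.78 at E7.5, 0.46 ± 0.60 at E8.5 and -1.26 ± 0.78 at E9.5. The first of these turned to -0.76 without KO replicate 1, so no direction can be given at E7.5. The E9.5 value was -0.53 without KO replicate 2 and -1.99 without KO replicate 1. With library sums it was -1.76, and with TMM scaling -2.04. Between E9.5 and E8.5 the difference in KO was -0.72 ± 0.68. It came to 0.00 without E9.5 KO replicate 2, and to -1.57 with library sums and -1.26 with TMM scaling. In WT it was 1.0 ± 0.71, and both E9.5 libraries lay above the 3 E8.5 libraries.

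mir-5110 was a sparse hairpin with most of its reads at E9.5, in both genotypes. At E7.5 it had 1 and 1 read in KO and 5 and 4 reads in WT, and at E8.5 it had 3, 0, 0 and 0 reads in KO and 0, 1 and 2 reads in WT. At E9.5 it had 12 and 4 reads in KO, which were 0.0303% and 0.0165% of the libraries, and 48 and 38 reads in WT, which were 0.0148% and 0.0278%. The KO and WT values of E9.5 overlapped. No value of the earlier stages reached that of any E9.5 library, but E8.5 KO replicates 3 and 4, with 0 reads, allow shares of up to 0.176% and 0.0307%, above those of E9.5.

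Mean shares were 0.0234% ± 0.00970 in E9.5 KO and 0.0213% ± 0.00917 in E9.5 WT (SD, n = 2 each), which did not differ beyond their spread, and 0.00303% or less in the other 4 groups. Pooled, the E9.5 share was 6.95 times that of E8.5 in KO (exact 95% interval 1.99 to 37.2) and 20.5 times in WT (6.78 to 101.4), each against 3 reads at E8.5. The log2 fold changes were 3.31 ± 0.68 in KO and 3.01 ± 0.72 in WT, and 2.86 to 2.92 in KO and 3.11 to 3.21 in WT under the other 2 scalings. Between genotypes at E9.5 the value was 0.59 ± 0.78, and -0.12 with TMM scaling, so no direction can be given.

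mir-1953 had 5 reads or fewer in every WT library and had reads in every KO library of E8.5 and E9.5. At E7.5 it had 0 and 1 read in KO and 1 and 3 reads in WT, so no difference was detectable at this depth. At E8.5 it had 6, 13, 4 and 9 reads in KO, where the pooled WT share would have given 0.545, 0.980, 0.0363 and 0.208 reads, and 0, 5 and 2 reads in WT. As shares these were 0.0234%, 0.0282%, 0.234% and 0.0922% in KO against 0%, 0.00401% and 0.00111% in WT. All 4 KO libraries lay above all 3 WT libraries, although the WT libraries together held 329012 reads and the KO libraries 83156.

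At E9.5 mir-1953 had 3 and 10 reads in KO, where the pooled WT share would have given 0.517 and 0.315, and 2 and 4 reads in WT. The shares were 0.00756% and 0.0413% in KO against 0.000618% and 0.00293% in WT, again without overlap.

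The pooled KO share of mir-1953 was 18.1 times that of WT at E8.5 (exact 95% interval 7.84 to 48.6) and 15.6 times at E9.5 (5.54 to 50.1). The log2 fold changes were 3.86 ± 0.81 and 2.90 ± 1.06, in the same order. The E9.5 value was 1.66 without KO replicate 2 and 4.14 without KO replicate 1. In order of mean share, E8.5 KO (0.0946% ± 0.0984, n = 4) and E9.5 KO (0.0245% ± 0.0239, n = 2) overlapped each other and stood above the other 4 groups, which had means of 0.00177% or less and overlapped among themselves. E7.5 KO replicate 1 and E8.5 WT replicate 1, with 0 reads, allow shares of up to 0.0125% and 0.0123% (3 reads). Both limits lie above the 0.00756% of E9.5 KO replicate 1, so E9.5 KO is not shown to be apart from those groups at that depth. Within the 1 label code shared by both genotypes at E8.5 (169), KO replicate 4 had 33.6 normalized counts and WT replicate 2 had 1.69.

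mir-3081 was seen mainly in the E8.5 KO libraries. No read was counted at E7.5, where 0 of 76446 reads in KO allow a share of up to 0.00392% and 0 of 324054 reads in WT up to 0.000926%, taking 3 reads over the group as the limit. At E8.5 it had 2, 15, 1 and 1 reads in KO, or 0.00781%, 0.0326%, 0.0586% and 0.0102% of the libraries, against 0, 3 and 0 reads in WT. All 4 KO values lay above the highest WT value, 0.00240%, but 15 of the 19 KO reads came from replicate 2. WT replicate 1 had 0 of 24465 reads, which allows up to 0.0123%, more than KO replicates 1 and 4 had, so the groups are not shown to be apart at that depth. At the pooled WT share the 4 KO libraries would have had 0.234, 0.420, 0.0156 and 0.0890 reads.

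At E9.5 there were 0 reads in KO, which allows up to 0.00470% over 63851 reads, and 1 read in replicate 1 of WT. The E8.5 KO pooled share of 0.0228% (exact 95% interval 0.0138% to 0.0357%) lay above each of these limits. Replicate 2 held 15 of its 19 reads, and the pooled interval covers counting error only. Taken singly, only replicate 2 of E8.5 KO (0.0182% to 0.0537%) had an interval wholly above 0.00470%. The 5 groups other than E8.5 KO could not be ranked at this depth.

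The pooled E8.5 share of mir-3081 was 25.1 times higher in KO than in WT (exact 95% interval 7.38 to 132), a ratio that rests on 3 WT reads. The fitted log2 fold change was 2.71 ± 0.49, and 0.82 with a pseudocount of 10 in place of 1. Between stages in KO the fitted value was -3.05 ± 0.56, which depends on the pseudocount since E9.5 KO had no read. Within label code 169, KO replicate 4 had 1 read (3.73 normalized counts) and WT replicate 2 had 3 reads (1.02).

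**Figure D2:**
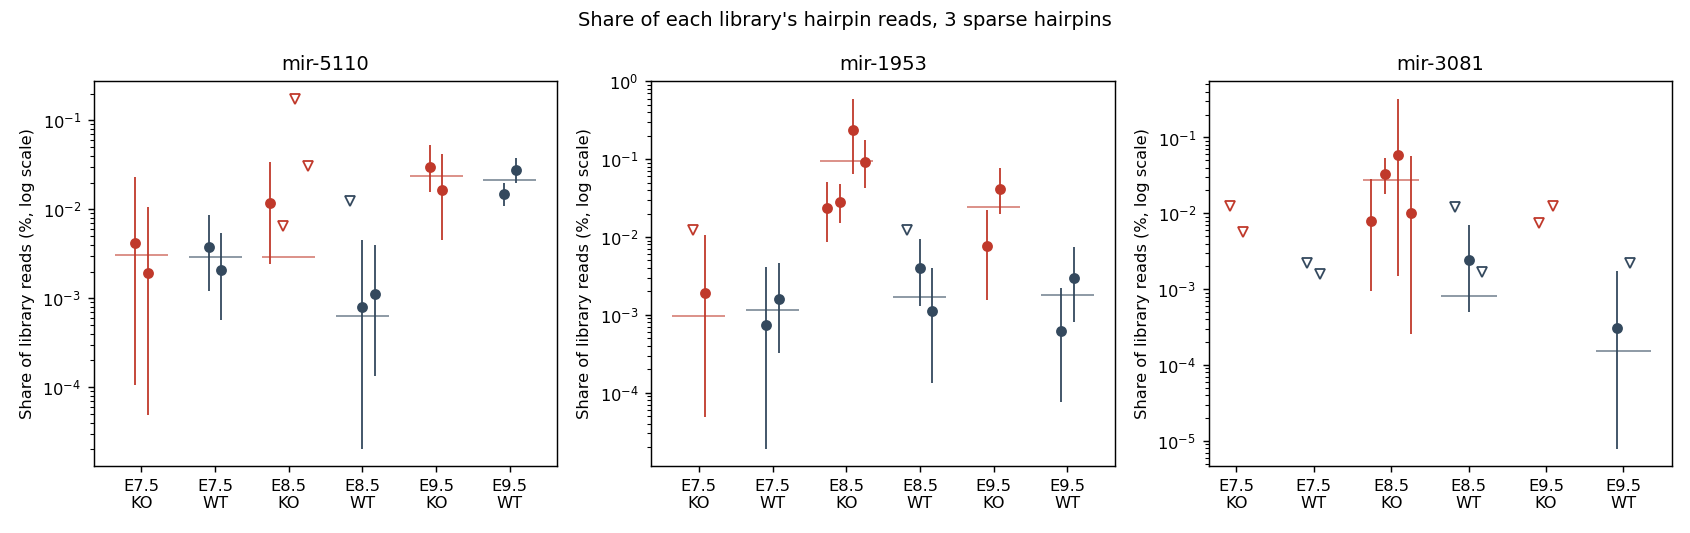
Share of each library's hairpin reads, in percent on a log axis, for mir-5110, mir-1953 and mir-3081 in the 6 groups. Points are libraries with exact 95% binomial intervals, open triangles are libraries with no read drawn at the share that 3 reads would give, lines are group means with libraries at 0 included, KO is red and WT dark blue. mir-5110 is high in both genotypes at E9.5, mir-1953 in KO at E8.5 and E9.5, and mir-3081 in KO at E8.5, where its 4 libraries sit between 0.00781% and 0.0586%.

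The filter on low values asked for 10 or more normalized counts in 2 or more libraries and was passed by all 5 hairpins, but not in the same way. mir-6236 and mir-5099 passed it in all 15 libraries. mir-5110 passed through 3 E9.5 libraries, mir-1953 through 2 E8.5 KO libraries and 1 E9.5 KO library, and mir-3081 through 2 E8.5 KO libraries, so for these 3 the filter itself chose a group where they were high. In 1 of its 2 libraries, replicate 3, mir-3081 passed with 1 read, worth 19.3 normalized counts. The second highest value of mir-3081 was 10.7, the closest to the minimum of all hairpins kept, followed by mir-339 and mir-6957 at 11.2. Just outside were mir-345 at 9.52, mir-874 at 9.46 and mir-365-1 at 8.84.

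Over the whole table, limma at an adjusted p under 0.05 called few of the 299 tested hairpins between genotypes. At E7.5 it called 2.68% of them, all lower in KO and none of the 5. At E8.5 it called 2.01% (0.669% higher and 1.34% lower in KO), and the 5 hairpins contributed 2 of those 6 calls, mir-1953 and mir-3081, both higher in KO. They were the only 2 hairpins called higher in KO at E8.5, where edgeR on the recovered reads also called mir-1953 but not mir-3081. At E9.5 it called 0.669%, all higher in KO and none of the 5. Between stages in WT it called 3.01% (1.34% higher and 1.67% lower at E9.5), and of the 5 only mir-5110, higher. Between stages in KO it called 27.1% (18.4% higher and 8.7% lower at E9.5), with mir-6236 and mir-5110 among the higher and mir-3081 among the lower. In KO that split of all calls, 55 higher and 26 lower, turned with the scaling to 30 and 49 by library sums and 38 and 35 by TMM. The E8.5 call of mir-1953 was lost without a filter, with a pseudocount of 10, with a replicate block, and without WT replicate 1 or 3. That of mir-3081 was lost without a filter and with a pseudocount of 10. Fits that left out 1 library kept the same 299 hairpins. mir-3081 passed the filter only through E8.5 KO replicates 2 and 3, so the fits without either cannot show that its call holds. The WT call of mir-5110 was lost without a filter and when any 1 of the 5 WT libraries of E8.5 and E9.5 was left out. The KO call of mir-3081 was lost in edgeR. At E9.5 mir-6236 was called between genotypes with a pseudocount of 10 and without E8.5 KO replicate 2, but not otherwise. The hairpins were picked for these contrasts, so nothing is read from their calls.

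Groups without overlap were common among all tested hairpins at E9.5. At E7.5 10.4% lay wholly higher and 20.4% wholly lower in KO than in WT, with none of the 5. At E8.5, with more libraries, 5.02% lay wholly higher in KO, among them mir-1953 and mir-3081, and 6.35% wholly lower, with none of the 5. At E9.5 35.5% lay wholly higher in KO, among them mir-6236 and mir-1953, and 27.4% wholly lower, among them mir-5099. Between E9.5 and E8.5, 28.1% lay wholly higher in WT, among them mir-6236, mir-5099 and mir-5110, and 27.1% in KO, among them mir-6236 and mir-5110. Wholly lower were 24.7% in WT, with none of the 5, and 12.4% in KO, with mir-3081.

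**Figure D3:**
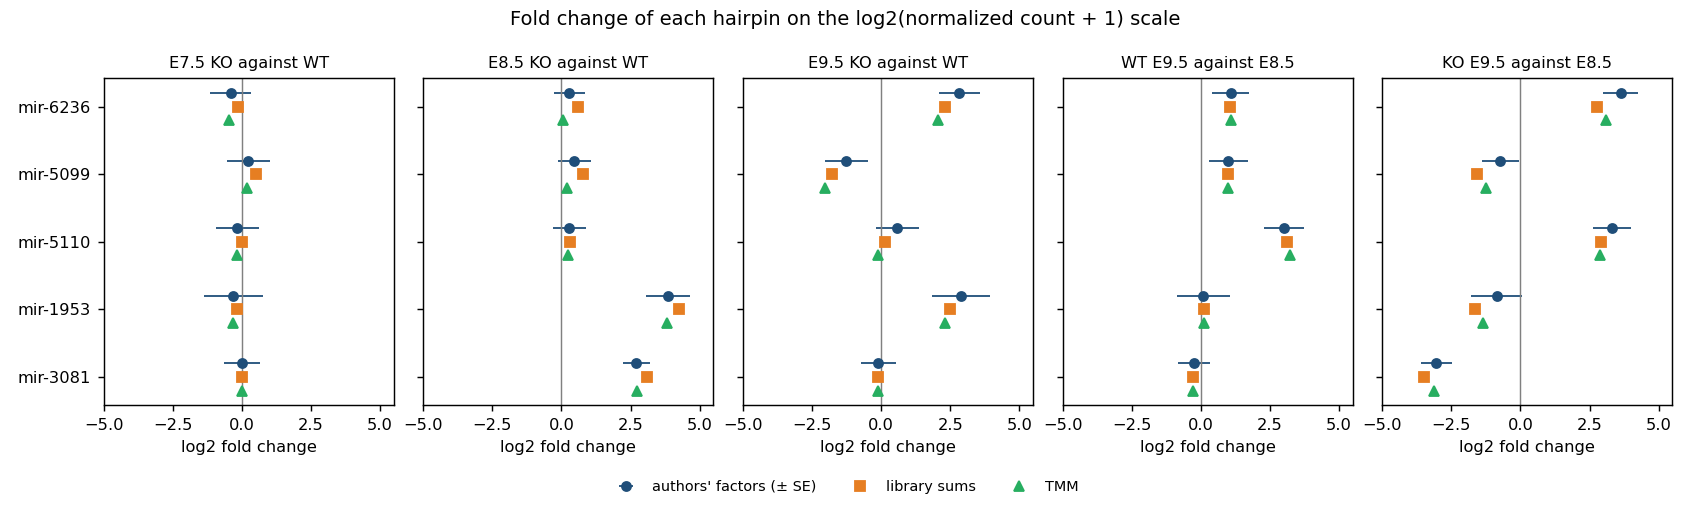
Fitted log2 fold change of the 5 hairpins in 5 comparisons, on the log2(normalized count + 1) scale. Blue circles with bars are values ± SE with the authors' size factors, orange squares use library sums and green triangles TMM scaling; values right of 0 are higher in KO, or higher at E9.5. The 3 scalings give mir-6236 at 2.83, 2.32 and 2.05 for E9.5 KO against WT, and turn the sign of mir-5110 there.

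Markers of other cell types also differed between the E9.5 groups. The 3 mir-124 hairpins of neurons summed to 248 and 531 normalized counts in KO against 45.9 and 62.4 in WT, and mir-122 of liver stood at 197 and 685 in KO against 33.1 and 79.9 in WT. The 5 epithelial hairpins of the miR-200 family summed to 81.2 and 154 in KO against 17.5 and 22.0 in WT. Vessel markers (mir-126a, mir-143 and mir-145a) summed to 377 and 806 in KO against 159 and 200.0 in WT, and the 4 mesenchymal mir-199 and mir-214 hairpins to 603 and 665 in KO against 1581 and 1728 in WT. Muscle markers summed to 57.2 and 60.9 in KO and 6.32 and 59.3 in WT. The 4 red blood cell hairpins summed to 8.80 and 2.90 in KO (6 and 1 reads) against 2.06 and 0.936 in WT (14 and 3 reads), and of them mir-451a and mir-486b had no read in any E9.5 library. The pluripotent embryo list, with the targeted hairpins in it, summed to 167 and 78.3 in KO against 367 and 489 in WT. The part of these cells, of depth and of the label code, which was 171 for KO and 209 for WT, in the values of mir-6236, mir-1953 and mir-5099 was not tested, and code and genotype cannot be told apart at E9.5.

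At E8.5 the mir-124 sum was 154.7 to 608 normalized counts in KO and 81.6 to 154.4 in WT. These ranges nearly touched, and the lowest KO value was 8 reads in replicate 3. The lists of blood, muscle, epithelium, vessels and mesenchyme overlapped between genotypes. The pluripotent embryo list, which holds the 4 targeted hairpins and 5 of the miR-290 cluster, summed to 80.0 to 251 in KO and 4007.5 to 6723 in WT. The targeted hairpins alone summed to 0 to 19.3 in KO and 3875 to 6522 in WT. The difference in this list is thus largely that of the targeted hairpins and says little on cell types. mir-122 stood at 0 to 28.4 in KO and 20.6 to 23.0 in WT. The part of neurons in the E8.5 values of mir-1953 and mir-3081 was not tested.

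Among other hairpins, those whose level over the 15 libraries was most like each of the 5 were found by Pearson's r of log2(normalized count + 1), as a description over libraries that share 6 groups and 1 set of size factors. For mir-6236 they were mir-6240 (r = 0.912), mir-5126 (0.895) and mir-574 (0.895). mir-6240 stood at 539 ± 116 normalized counts in E9.5 KO and 83.4 ± 65.1 in E9.5 WT (SD, n = 2 each), with 456.3 and 621 in KO against 37.3 and 129.5 in WT, and in each E9.5 group the library with more mir-6236 also had more mir-6240. mir-5126 stood at 41.1 and 110.2 in E9.5 KO against 2.50 and 8.73 in E9.5 WT, and mir-574 at 19.1 and 60.9 in KO against 1.32 and 4.68 in WT. Mature miR-6240 and miR-5126, printed for comparison with miR-6236, were 69.2% and 100% G and C against 79.0%, but miR-574-5p and miR-574-3p were 47.8% and 59.1%, near the median of all mature sequences.
miR-6240: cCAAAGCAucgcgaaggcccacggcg
miR-5126: gCGGGCGGggccgggggcgggg
miR-6240 and miR-5126 share no more than 4 and 5 consecutive bases with miR-6236.

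**Figure D4:**
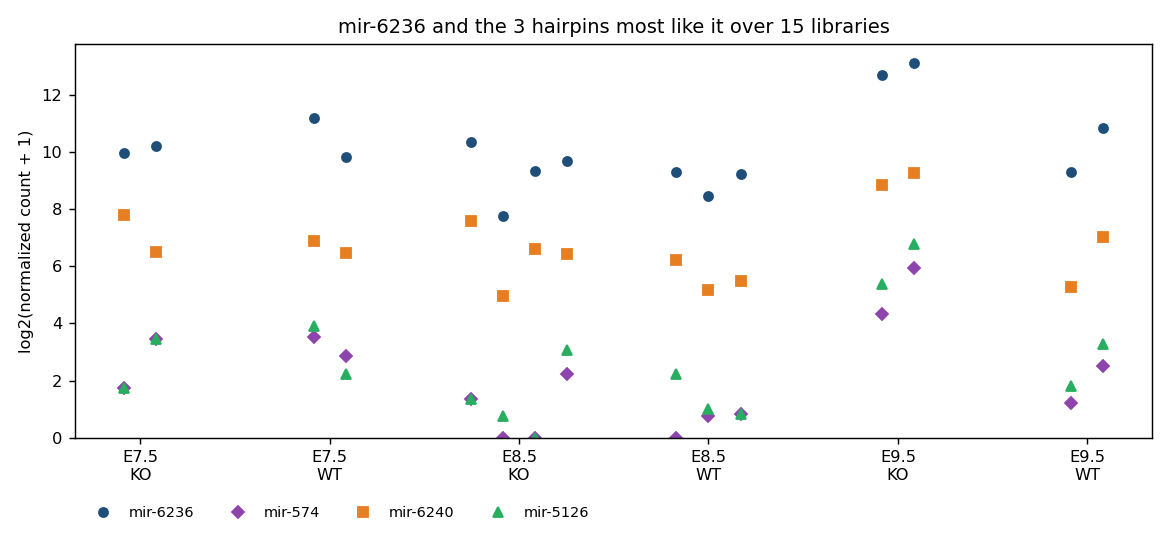
Level of mir-6236 and of the 3 hairpins most like it, as log2(normalized count + 1), in the 15 libraries by group. Each point is 1 library, and points in 1 column are the same library. All 4 hairpins are highest in the 2 E9.5 KO libraries, and mir-6236 follows mir-6240 with r = 0.912.

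For mir-5099 they were mir-320 (r = 0.808), mir-877 (0.690) and mir-541 (0.629). mir-320 stood at 163 and 58.0 normalized counts in E9.5 KO against 97.4 and 137 in E9.5 WT, so its groups overlapped where those of mir-5099 did not. For mir-5110 they were mir-6236 (0.790), mir-125b-2 (0.782) and mir-6540 (0.782). For mir-1953 they were mir-210 (0.860, and 0.900 on shares of each library, where mir-6236 and mir-6240 had 0.878), known to be induced by low oxygen, mir-132 (0.778) and mir-124-2 (0.757), a neuronal microRNA. mir-210 had 7.15 to 19.3 normalized counts in E8.5 KO against 0 to 2.06 in E8.5 WT, from 1 to 10 and 0 to 8 reads. For mir-3081 they were mir-19b-1 (0.781), mir-219a-1 (0.763) and mir-1953 (0.743), with only 6 libraries in which mir-3081 had a read. Among the 5, r ran from -0.50 for mir-5110 and mir-3081 to 0.79 for mir-6236 and mir-5110.

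A broader list of 687 other hairpins numbered 1000 or above had 33 tested members. Between genotypes 0 of the 33 passed at any of the 3 stages, and between stages in WT 0 passed. Between E9.5 and E8.5 in KO 7 passed, all higher at E9.5, with mir-6240 and mir-5126 among them, in a comparison where 18.4% of all tested hairpins were called higher and where the split of all calls turned with the scaling. The median log2 fold change of the 33, KO against WT, was 0.00 at E7.5 and -0.15 at E8.5, beside -0.25 and -0.20 over all 299 tested. At E9.5 it was 1.89, beside 0.02, and 24 of the 33 lay above 0, beside 150 of 299. With library sums the E9.5 medians were 1.44 and -0.33, and with TMM 1.2 and -0.54. A pseudocount of 10 gave 0.71 and 0.08. The median of the 33 was 1.11 without E9.5 KO replicate 2 and 2.41 without E9.5 WT replicate 2. The filter itself could favour E9.5 KO. mir-6540, among the 7, had 24.9 and 11.6 normalized counts in E9.5 KO and at most 5.29 in any other library. It was kept through the E9.5 KO libraries alone, and how many of the 33 were kept so was not counted. The median and the 7 calls are thus not independent of the filter.

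None of the 4 most abundant of the list passed between genotypes at E9.5. There mir-6240 stood at 2.91 ± 0.81 (log2 fold change ± SE, KO against WT) and mir-8112 at 3.33 ± 1.15, while mir-1983 stood at -0.54 ± 0.61 and mir-1306 at -0.38 ± 1.0 (adjusted p = 0.168, 0.178, 0.618 and 0.865, limma, n = 2 against 2). Of these, mir-8112 had 174 ± 103 normalized counts in E9.5 KO and 17.2 ± 12.7 in E9.5 WT. As shares of each library, the 687 hairpins took 0.903% and 1.35% of reads in KO and 0.686% and 0.895% in WT at E7.5. At E8.5 they took 1.06% to 2.40% in KO and 0.891% to 1.34% in WT. At E9.5 they took 2.35% and 3.35% in KO and 1.01% and 1.5% in WT. Here too the libraries of lowest depth were KO libraries.

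In the authors' deposited table of Mfuzz clusters, which groups 413 hairpins, mir-6236 and mir-1953 were both in cluster 3 (155 hairpins), and mir-5099 and mir-5110 both in cluster 7 (49 hairpins). mir-3081 was not listed in it.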

How the data were processed

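The deposited signal is a table of normalized counts per hairpin, in which the authors had divided reads by 1 factor per library. All 6086 values above 0 (100%, within 0.001) were whole multiples of what 1 read was worth, so reads were recovered. edgeR on those reads called 4, 5 and 2 hairpins between genotypes at E7.5, E8.5 and E9.5, and 28 in WT and 78 in KO between E9.5 and E8.5. The submitters' processing notes name FastQC 0.11.5, STAR 2.7.0f and mm10, and the counting tool is not given in the sources used here. Per the labels' protocols, libraries were made from column-purified RNA with gel size selection. The table listed 3337 entries, of which 2108 for mature arms were 0 throughout, and 1226 were distinct hairpins after 3 repeated names. The authors' Mfuzz cluster numbers came from another deposited file, and their listed seeds from the same one as the counts. Both are of another unit. Cluster numbers and 1 seed were used. One further column of per-library values (1 column) matched no sample and was not used.

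Shares are reads over all hairpin reads of a library, with exact (Clopper-Pearson) 95% intervals, which cover counting error only. The test was limma 3.58.1 (R 4.3.3, two-sided, with a mean trend), applied to log2(normalized count + 1) with all 15 libraries in 1 model of 6 group means and Benjamini-Hochberg adjustment over 299 hairpins that reached 10 normalized counts in 2 or more libraries. Fold changes on this scale understate changes of low hairpins. The script was tested on simulated data with 1 spread for all libraries, which checks the code and not the calls in these libraries. Alternatives were library-sum and TMM scaling, no filter, a pseudocount of 10, edgeR 4.0.16 quasi-likelihood, a replicate block, leaving out each library, and other denominators of the share. Folding used RNAfold 2.7.2, and positions are of GRCm38. The chi-square per degree of freedom between replicates, 2.09 to 203, exceeded what counting allows, and all libraries were kept apart in the fits. Pooled shares, their ratios and the intervals of both were taken from reads summed over the libraries of a group. Named hairpins were the 5, the 3 most like each, the 4 most abundant others numbered 1000 or above, mir-302a to mir-302d and mir-367; markers and hairpins at the filter's edge were named too. The members, lists and tests were chosen with earlier results of these data known.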

Additional observations from a re-analysis of the deposited data

Results flagged for a closer look

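In E8.5 KO, 1 library stood far from the other 3 for mir-5110: replicate 1 had 4.73 normalized counts, or 0.0117% of its reads, against 0 in each of the others. The value is 3 reads. In replicates 3 and 4, 3 reads would have been 0.176% and 0.0307%, so these libraries could not show a share of that size, while in replicate 2 they would have been 0.00651%. The other 4 hairpins had no library this far out in the group, on either scale. Both values are the same 3 reads on 2 scales, and the gap is measured against libraries at 0. The critical value used is one that chance passes in about 1 in 20 groups of normally distributed values. That rate does not hold here: with the other 3 libraries at 0, any count in 1 library would have been flagged.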

How the results depend on the processing

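Of 140 fold changes of the 5 hairpins recomputed under 6 other settings, 124 moved by less than their SE and 3 changed sign, none of them a called value. Among the 124 are values that could not move. Removing the filter leaves each fold change as it was, and so does the replicate block at E7.5 and E9.5. Leaving out 1 library at a time kept 362 of 375 within their SE, and 12 changed sign, again none called. A fold change can move only where the library left out belongs to a group compared. Many of the 375 were thus fixed in advance, and their number is no measure of stability. The number of hairpins called moved with the settings. Without a filter it was 18 for E7.5 KO against WT, 8 for E9.5 KO against WT, 4 for E9.5 against E8.5 in WT and 49 in KO, beside 8, 2, 9 and 81. edgeR called 4 for E7.5 KO against WT and 28 for WT E9.5 against E8.5. A pseudocount of 10 gave 10 for E9.5 KO against WT and 17 for WT E9.5 against E8.5, and library-sum and TMM scaling gave 1 each for E9.5 KO against WT. The replicate block gave 9, 5 and 0 calls at E7.5, E8.5 and E9.5, beside 8, 6 and 2, with 48 hairpins at an unadjusted p under 0.05 at E9.5, where edgeR called 2. Replicate numbers were not taken as pairs in the main fit. Deviations of KO and WT libraries with the same number correlated at -0.23 for E7.5, at 0.09 to 0.14 for E8.5 and at 0.19 for E9.5. With 2 libraries per group, as at E7.5 and E9.5, the sign of this value depends only on the numbering. The check therefore cannot exclude a pairing.

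Leaving out 1 library gave 6 to 27 calls for E7.5 KO against WT (27 without KO replicate 2), 5 to 7 for E8.5 KO against WT, 0 to 4 for E9.5 KO against WT (0 without WT replicate 1, 4 without KO replicate 1), and 1 to 19 for WT E9.5 against E8.5. That last count was 1 without any 1 of its 5 libraries and 19 without E8.5 KO replicate 3. For KO E9.5 against E8.5 it gave 14 to 91, with 14 without E9.5 KO replicate 2 and 52 without E9.5 KO replicate 1. The cause was not tested.

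Of 84 mean shares recomputed over other totals, 78 moved by less than their SD. Over reads except mir-92a-1 the mean share of mir-6236 was 15.03% in E9.5 KO and 1.64% in E8.5 WT, that of mir-5099 3.66% in E9.5 WT and 1.78% in E7.5 WT, and that of mir-5110 0.0326% in E9.5 WT. Over reads except the miR-302 hairpins, mir-5099 took 1.88% in E7.5 WT. A smaller total raises every share. Depth limits the 3 sparse hairpins most: in E8.5 KO replicate 3, with 1706 reads, 1 read was worth 19.3 normalized counts.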
